A study of Mus musculus with 2 samples.

Results

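The 94 genes described here encode the subunits of RNA polymerase II, the general factors that place it on a promoter, and the large complexes Mediator and Integrator. They were chosen by symbol, as the genes named Polr2 with a letter from a to m, Med, Ints or Taf with a number, and Gtf2 with the letter a, b, e, f or h, each with at least 1 transcript annotated as protein-coding. In the annotation of the files 95 symbols have such a name, and Med9os was left out because it has no protein-coding transcript. The 94 members are 94 of 55536 annotated genes, with 13 Polr2, 30 Med, 15 Ints, 23 Taf and 13 Gtf2 genes. A few belong by name more than by task: Taf1a, Taf1b, Taf1c and Taf1d form the SL1 factor of RNA polymerase I, Taf5l and Taf6l belong to the SAGA coactivator, and Taf15 encodes an RNA-binding protein of the FET family.

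The RNA came from primary bone-marrow-derived macrophages of C57BL/6J mice that had received Lipid A, the part of bacterial lipopolysaccharide that Toll-like receptors sense, at 100 ng/ml for 60 min. The labels name the fraction both nucleoplasmic and nuclear, state that ribosomal RNA was removed, and give no sex or age. There was 1 group, of 2 libraries: the starting amount was 1 µg of RNA for replicate 1 and 500 ng for replicate 2, and the biosamples differ but carry 1 donor label. The spread between them may therefore be technical and smaller than the spread between animals, and unstimulated cells, other fractions and other times were not analysed here.

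The gene tables held 21256531 expected counts in replicate 1 and 15643649 in replicate 2. An expected count is an estimated number of reads or fragments per gene, and TPM is that number per effective length, scaled to a fixed sum over the library. The 22015 protein-coding genes of the nuclear genome held 72.0% and 67.9% of the counts on annotated genes, replicate 1 first here and throughout. Their TPM summed to only 254268 and 187954, against 998871 and 999679 over all annotated genes. As the sum is fixed, TPM levels and cutoffs here also depend on the RNA of the other genes. A gene is called expressed below where its TPM was 1 or more in each library. This held for 8622 of the 22015 protein-coding genes, with a median TPM of 8.29 and 6.31. All 8 macrophage markers lay at a TPM of 10 or more in each library, with sums of 3431 and 3040. The 12 markers of T cells, B cells, erythroid cells, neutrophils and fibroblasts summed to 0.66 and 0.63, and 7 of them, the T-cell genes Cd3d, Cd3e and Cd3g among them, were at 0 in both. In such bulk RNA fewer cells of a type and less RNA per cell cannot be told apart.

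RNA polymerase II transcribes all protein-coding genes of the nucleus, and needs TFIIA, TFIIB, TFIID, TFIIE, TFIIF and TFIIH to find a start site, open the DNA and begin. Mediator bridges transcription factors bound at enhancers and the polymerase, and its kinase module, of Med12, Med13, Cdk8 or Cdk19 and cyclin C, binds the core reversibly. Integrator cleaves the nascent RNA of small nuclear RNA genes, enhancers and stalled polymerases near promoters, and carries a phosphatase that removes phosphates from the polymerase. RNA of the nucleus holds transcripts still being made or spliced beside finished ones, which is why the transcript models with a retained intron are shown first.

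Retained-intron transcripts are models that GENCODE annotates as non-coding and that run on into an intron. Among the members with a TPM of 1 or more in each library, 10 had at least 50% of the gene's TPM on such models, or of its expected counts, in both libraries. Gtf2h3 also did by TPM, with 90.6% and 56.5%, but lay below 1 in replicate 2 and is not shown. In each of the 10, the splice donor that the most counted model with such a read-through passes over begins with GT, the usual first bases of an intron. The windows below, read from mm10, show 10 exon bases and 20 intron bases of the transcribed strand, 5′ to 3′, with the GT of the donor in capitals. They are given because such a model runs past this junction, where the coding transcript is spliced. Med10-203 also runs through all of intron 1 of Med10-201, and Med4-202 runs on into intron 2 of Med4-201. Those further edges are not shown. For Polr2b the window is that of Polr2b-202, with a TPM of 0.23 and 0.81, while most of the retained-intron TPM of the gene was on Polr2b-203, whose edge is not shown.
Gtf2b: cgaccagccgGTgagtgcaacggcctcgga
Gtf2a2: caatttcaggGTaaggatgtcttcctgcat
Taf1d: attgaagaagGTaaagaacatagataacag
Taf11: ggaaagcgagGTaggtggaagttggtggat
Med15: actccacagaGTgagtactacactccttgg
Med20: ctctgtggagGTaagaccttggtgaaggac
Med21: tgtgaactcgGTgagggctttcctctgctc
Med10: cacaatgaagGTgaggcagacaggaagtga
Med4: tcttgtcgagGTaaccgcggcccgggagcc
Polr2b: agtatcccagGTgaggtgcccactgttcct

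The donor shown lies in the first intron for 4 of the 10 genes, Gtf2b, Med21, Med4 and Taf11. For Gtf2b it opens the intron at chr3:142765289-142771385 on the plus strand, for Med21 the intron at chr6:146642653-146648164 on the plus strand, for Med4 the intron at chr14:73510186-73511154 on the plus strand, and for Taf11 the intron at chr17:27905411-27907500 on the minus strand. For Gtf2a2 it is intron 3, at chr9:70016924-70019388 on the plus strand, and for Med15 intron 5, at chr16:17674659-17680548 on the minus strand. In Polr2b it is intron 10, at chr5:77326722-77331132 on the plus strand. The Taf1d donor opens intron 6, at chr9:15311696-15311908, the Med20 donor intron 3, at chr17:47619063-47622884, and the Med10 donor intron 3, at chr13:69813807-69815590, all on the plus strand. The model holds the whole intron in 4 genes, Med20, Med10, Med4 and Taf1d, and ends inside it in the other 6.

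Most of the machinery was detected, at modest levels. Of the 94 members 78 (83.0%) were expressed, against 39.2% of all 22015 protein-coding genes. At a TPM of 10 or more in each library the counts were 18 of 94 (19.1%) against 14.4%, and at 20 they were 8 of 94 (8.51%) against 8.05%, so near the top the members' share was close to the background. The median TPM of the 94 was 3.33 in replicate 1 and 2.69 in replicate 2, against 0.28 and 0.22 for all 22015 protein-coding genes. Cut to expressed genes, the median log2(TPM + 1) was 2.35 for the members and 3.04 for protein-coding genes. Together the members took 0.274% and 0.268% of the counts on annotated genes.

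By family, the expressed genes were 11 of 13 Polr2, 25 of 30 Med, 14 of 15 Ints, 19 of 23 Taf and 9 of 13 Gtf2 genes. On the log2(TPM + 1) scale the family medians were 2.46 ± 0.22 (SD, n = 2) for Med, 2.14 ± 0.09 for Ints, 1.91 ± 0.06 for Polr2, 1.74 ± 0.15 for Gtf2 and 1.71 ± 0.19 for Taf. Within a library, Med stood above Ints by 0.41 and 0.23 and above Taf by 0.77 and 0.73, so both libraries gave these a like order. Gtf2 and Taf differed by only 0.03 on average and are not told apart. The order depended on the scale: in CPM, the counts scaled to the library with no division by length, Ints led with a median log2 of 4.18 and Polr2 was last with 1.62, in the other transcript table Gtf2 led with 2.36, and over expressed members alone Gtf2 led with 3.29, ahead of Med with 2.59.

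**Figure D1:**
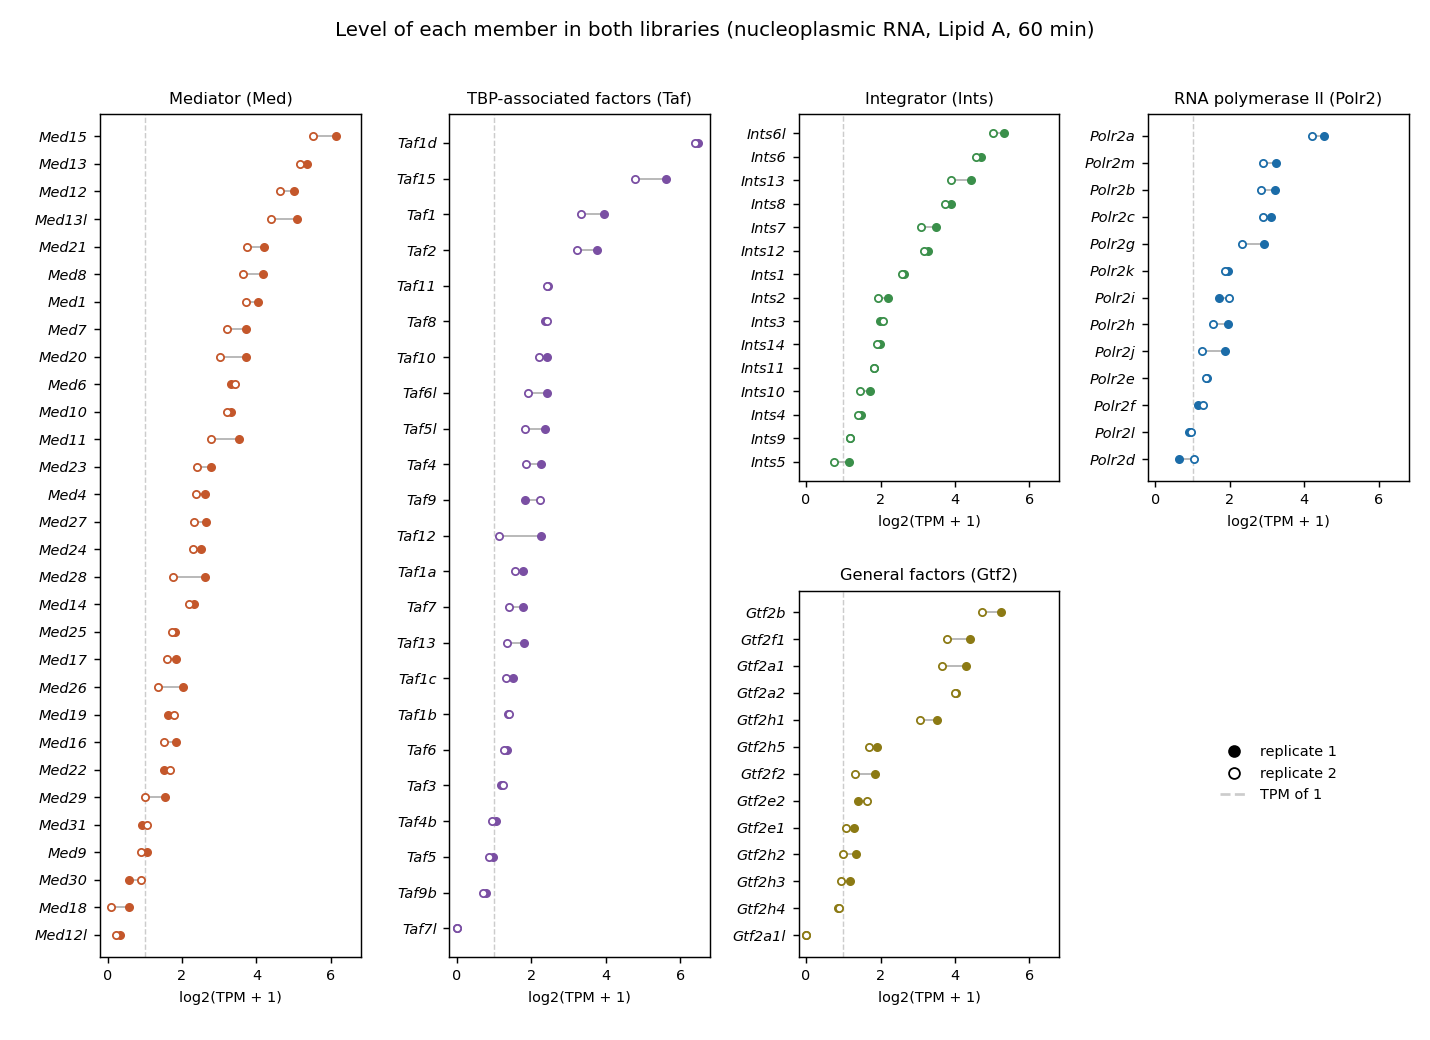
Level of each of the 94 members as log2(TPM + 1), grouped by family and ordered by mean TPM, with filled points for replicate 1, open points for replicate 2 and a dashed line at a TPM of 1. Taf1d (88.55 and 83.39) is highest and Taf7l and Gtf2a1l are at 0 in both libraries.

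Among the RNA polymerase II subunits, Polr2a, which encodes the catalytic subunit with the long C-terminal tail, stood apart. The gene (ENSMUSG00000005198.15, chr11:69733997-69758637, minus strand, mm10) had TPM values of 22.26 and 17.54, from 3325 and 2420 expected counts. It was the only Polr2 gene above a TPM of 10, in either library. Polr2m, whose product binds the polymerase and makes it depend on Mediator, followed with 8.51 and 6.45. Polr2b, the partner of Polr2a in the active centre, had 8.31 and 6.18, and Polr2c, on which the polymerase is assembled, had 7.58 and 6.39. The ranges of these 3 overlap, and no order among them is read. Polr2g followed with 6.56 and 3.99.

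Polr2a exceeded Polr2b by 1.46 ± 0.06 on the log2 TPM scale (SD, n = 2). Counting only protein-coding transcripts the gap was 2.83 and 2.48, because Polr2b then fell to a TPM of 2.92 and 2.85. Most of the rest lay on Polr2b-203, a retained-intron model of 261 bases that carried a TPM of 4.48 and 2.35 on just 7.46 and 3.27 expected counts. Retained-intron models thus held 64.9% and 53.8% of the TPM of Polr2b and 5.24% and 5.22% of its counts.

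The 5 subunits that RNA polymerase II shares with polymerases I and III, Polr2e, Polr2f, Polr2h, Polr2k and Polr2l, were all low. Their median TPM was 1.60 and 1.59, against 7.07 and 5.09 for the 8 genes of polymerase II alone, a gap of 1.42 ± 0.30 on the log2(TPM + 1) scale. Of those 8, Polr2i (2.29 and 2.92), Polr2j (2.66 and 1.40) and Polr2d were low as well. Polr2f, a small shared subunit, had a TPM of 1.21 and 1.42, and Polr2l 0.87 and 0.94. Polr2d, which with Polr2g forms the stalk of the polymerase, was lowest by mean TPM, with 0.56 and 1.04 from 11 and 18 expected counts, though Polr2l was below it in replicate 2. The 95% Poisson intervals of these raw counts are 5.49 to 19.7 and 10.7 to 28.4. They are not scaled for library depth, so their overlap does not decide whether the libraries differ. Scaled for depth, the log2 ratio of replicate 2 to replicate 1 was 1.18, and with 1 library on each side it was not tested. Polr2f, Polr2h, Polr2i and Polr2j each overlap a gene with more counts on the opposite strand, and as the strand setting is not given in the sources used here their values are uncertain.

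Of the general factors, TFIIB, TFIIA and the larger TFIIF subunit led. Gtf2b, the single gene for TFIIB, which links the polymerase and the TATA-binding protein, had a TPM of 36.53 and 25.61 from 1758 and 1178 counts. Gtf2f1, which stabilises the polymerase in the initiation complex, had 20.09 and 12.73, all of it on its only annotated transcript, a protein-coding one. For TFIIA, which steadies the TATA-binding protein on DNA, Gtf2a1 had 18.50 and 11.55 and Gtf2a2 had 15.16 and 14.87. Gtf2b was above the other Gtf2 genes in both libraries, while Gtf2f1, Gtf2a1 and Gtf2a2 overlap.

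By gene TPM most of the other general factors were low. The 5 genes of the TFIIH core, which opens the DNA, had a median TPM of 1.54 and 0.99, with Gtf2h1 at 10.35 and 7.40, Gtf2h3 at 1.27 and 0.92 and Gtf2h4 at 0.82 and 0.84. Only 2 of the 5, Gtf2h1 and Gtf2h5, were expressed by this measure. These estimates depended on the table. The other transcript table gave Gtf2h3 4.01 and 4.24, Gtf2h5 6.48 and 7.21 and Gtf2h2 1.38 and 1.81. There Gtf2h1 had 7.09 and 6.90, and only Gtf2h4, with 0.80 and 1.42, fell below 1. The low median of the TFIIH core thus did not hold in that table. The 2 TFIIE genes, which recruit TFIIH, lay between 1.12 and 2.10. Gtf2a1l, a germ-cell relative of Gtf2a1, had 0 counts in both libraries, so the floor of 3 counts puts it below a TPM of 0.123 and 0.131.

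The TAFs that build TFIID around the TATA-binding protein had a median TPM of 2.55 and 1.61 over 16 genes. Taf1, the largest of them and the scaffold of the complex, was highest with 14.47 and 9.12, followed by Taf2, which contacts the start site, with 12.62 and 8.43. Taf5, a central scaffold protein, had only 0.97 and 0.81, and Taf9b 0.73 and 0.64. Taf7l, known from male germ cells, had 0 counts in both libraries. Taf1 and Taf2 were above all other TFIID genes in both libraries but not apart from each other. By mean TPM the other TFIID genes ran from Taf11, a histone-fold protein, with 4.42 and 4.32 down to Taf4b with 1.07 and 0.94. Taf11 overlaps Anks1 on the opposite strand, with 1460 and 872 counts against 124 and 127, so its values are uncertain. The SAGA genes Taf6l and Taf5l had 4.40 and 2.76 and 4.15 and 2.57. Taf15, an RNA-binding protein that also joins TFIID, had 47.87 and 26.64, from 1284 and 635 counts.

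Taf1d was the highest of all 94 members by gene TPM, and nearly none of it was coding. The gene (ENSMUSG00000031939.16, chr9:15306214-15316991, plus strand) encodes an SL1 subunit and hosts small nucleolar RNAs (snoRNAs), which guide the modification of ribosomal RNA. It had 88.55 and 83.39 in the 2 libraries, from 3640 and 2810 counts, while its protein-coding transcripts summed to a TPM of 2.29 and 2.92. The non-coding share was 97.4% and 96.5%, and by coding TPM Taf1d ranked 35 among the members. The other SL1 genes, Taf1a, Taf1b and Taf1c, lay between 1.48 and 2.40.

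The 2 units split Taf1d differently. By TPM the leading transcript was Taf1d-206, a processed transcript of 491 bases with 43.35 and 48.70, on 302 and 312 counts. By counts it was the retained-intron model Taf1d-203 of 4881 bases, with 2398 and 1974, whose unspliced donor in intron 6 is shown above. That intron makes up 213 of the 4881 bases. The coding Taf1d-201, which is spliced there, had just 8.73 and 2.34 counts. The annotation places 8 snoRNA genes of 71 to 137 bases inside Taf1d, 5 of them within exons of Taf1d-203. Of the 8, 7 had 0 counts in both libraries and together they had 6.57 and 2.82, against 3640 and 2810 on Taf1d. These snoRNAs are shorter than the size range of 250 to 400 recorded for both libraries. How reads were divided between them and Taf1d was not tested, so their counts are not read as their level. Cep295 and 4931406C07Rik overlap the ends of Taf1d on the opposite strand, with 538 and 285 and with 139 and 124 counts.

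In Mediator the kinase module was the highest part. Med13, which tethers the kinase to the core (ENSMUSG00000034297.14, chr11:86267033-86357602, minus strand), had a TPM of 40.13 and 35.28. Its 9733 and 7755 counts were the most of any member, and it also ranked 1 by coding TPM, with 38.57 and 32.24. Med12, which activates the kinase, had 30.93 and 23.90, and Med13l, a relative of Med13, had 32.96 and 19.97. Med12l, the relative of Med12, was the lowest Mediator gene by mean TPM with 0.27 and 0.17, though Med18 was lower in replicate 2. The median of the 4 genes was 31.9 and 21.9 and stood above that of the head module by 1.73 ± 0.02 on the log2(TPM + 1) scale. The kinase itself was lower: Cdk8 had 7.71 and 6.87, its cyclin Ccnc 5.05 and 5.01, and its relative Cdk19 1.88 and 1.66.

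The head of Mediator, which touches the polymerase, had a median TPM of 9.04 and 5.80 over 7 genes. Med8 led with 17.17 and 11.36, and Med18 was lowest with 0.50 and 0.06. Med18 rested on 8 and 2 counts, and the other transcript table gave it 0.55 and 0.54, so no difference between the libraries is read. Between them lay Med20 (12.25 and 7.05), Med11 (10.54 and 5.80), Med6 (9.04 and 9.82), Med17 (2.57 and 2.04) and Med22 (1.88 and 2.21). The middle module, which transmits signals to the head, had a median of 5.15 and 4.16 over 9 genes. Med21 was highest there with 17.41 and 12.45, and Med1, the docking site of nuclear receptors, had 15.33 and 12.08. The other 7 middle genes ran from Med7, the partner of Med21, with 12.22 and 8.29 down to Med31 with 0.90 and 1.09 and Med9 with 1.08 and 0.86. Med14, the backbone that joins the modules, had 3.97 and 3.52.

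The tail, where activators bind, had a median of 4.74 and 2.39 over 9 genes, with 1 gene far above the rest. Med15 (ENSMUSG00000012114.17, chr16:17651208-17732891, minus strand) had 68.66 and 44.77, from 3213 and 2115 counts. Its next neighbour in the tail, Med23, had 5.89 and 4.26, and Med29 had 1.91 and 1.01. Med30, which anchors the tail to the core, had 0.50 and 0.87 from 7 and 16 counts. Of Med15, a share of 55.2% in each library was on retained-intron models, and its protein-coding transcripts had 21.95 and 15.59, still the highest coding value of any Mediator gene outside the kinase module.

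In Integrator the subunits of the nuclease were among the lowest genes. Ints11, the endonuclease, had 2.57 and 2.52, its inactive partner Ints9 had 1.27 and 1.27, and Ints4, which holds both, 1.80 and 1.61. Their median was 1.80 and 1.61, against 6.94 and 6.24 for the other 12 Integrator genes. Ints6l had 39.15 and 31.24, Ints6, whose product helps to hold the phosphatase, 24.74 and 22.61, Ints13 20.43 and 13.83 and Ints8 13.78 and 12.32. Below them came Ints7 with 10.27 and 7.52, Ints12 with 8.74 and 7.90 and Ints1, the largest scaffold protein of the complex, with 5.14 and 4.95. Ints2, Ints3, Ints14 and Ints10 lay between 1.72 and 3.61. Ints5, a structural subunit, was lowest with 1.23 and 0.69. Ints13 and Ints2 each overlap a gene with more counts on the opposite strand, Fgfr1op2 and Brip1os, so their values are uncertain. The phosphatase subunits that Integrator borrows were of like size to Ints6, with Ppp2r1a at 33.25 and 35.48 and Ppp2ca at 25.26 and 16.38.

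Several members have a related gene among the members, and the 2 genes of such a pair were seldom equal. Med12 exceeded Med12l by 6.99 ± 0.21 on the log2 TPM scale (SD, n = 2). Reads of Med12l are uncertain, since P2ry14, with 1059 and 797 counts on the opposite strand, lies within it and Med12l had 64.2 and 43.0. Med13 exceeded Med13l by only 0.55 ± 0.38. Gtf2a1 was at least 150-fold and 88.5-fold higher than Gtf2a1l, and Taf7 at least 20.8-fold and 13.2-fold higher than Taf7l, with the floor of 3 counts per library for the gene at 0.

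The TFIID genes Taf4 and Taf9 exceeded their relatives Taf4b and Taf9b by 1.65 ± 0.25 and 2.18 ± 0.50. The SAGA genes went the other way: Taf5 stood below Taf5l by −1.88 ± 0.30 and Taf6 below Taf6l by −1.25 ± 0.39. Counting only coding transcripts, Taf5 was still lower, by −1.28 and −1.04, and Taf6 by −0.35 and −0.43. In these pairs both libraries gave the same direction. Taf5, Taf5l and Taf6 each overlap a gene with more counts on the opposite strand, Usmg5, Gm20388 and Ap4m1, so their values are uncertain as well. Taf9 overlaps Ak6 on the same strand, with 130 and 135 counts against 90.2 and 103 on Taf9. The deposited posterior SD of the Taf9 counts was 11.9% and 9.48% of them, so its values are uncertain too.

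Ints6 and Ints6l were the pair that moved most with the unit. By gene TPM Ints6 stood at −0.56 ± 0.14 relative to Ints6l. By coding transcripts alone the gap widened to −2.73 and −2.28, because Ints6 had 5.39 and 5.35 there and Ints6l 35.75 and 26.00. In the other transcript table the direction turned, with 13.5 and 19.2 for Ints6 and 12.8 and 13.5 for Ints6l, so no order of the pair is read. For Med13 and Med13l the coding gap was 1.42 and 1.76. Med13l also holds 6 unverified transcript entries within its span, 5 on its own strand, with 3926 and 2845 counts in all against 3894 and 2480 on Med13l itself. How reads were divided between them was not tested.

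**Figure D2:**
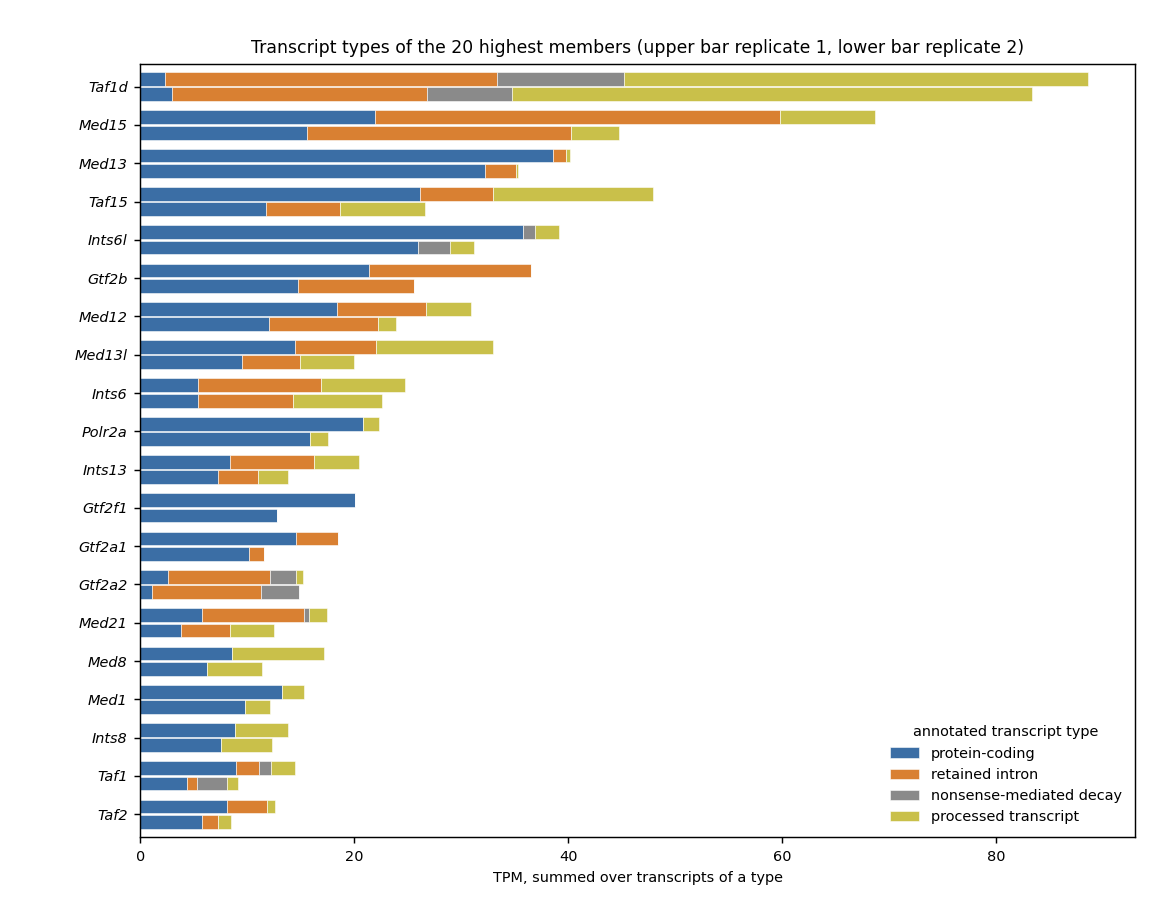
TPM of the 20 highest members split by annotated transcript type, with replicate 1 as the upper and replicate 2 as the lower bar of each gene. Nearly all of Taf1d is non-coding (97.4% and 96.5%), while Med13 and Polr2a are mostly protein-coding. Polr2a has no annotated retained-intron model, and Gtf2f1 has only 1 annotated transcript, so its coding share is set by the annotation.

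Across the 78 expressed members, a median of 29.7% and 26.3% of the TPM was on transcripts outside the protein-coding type, against 26.6% and 25.4% for the 8622 expressed protein-coding genes. At least 50% of the TPM was outside it in both libraries for 14 of the 78 (17.9%), against 19.0% of those genes, a like share. The 14 were Taf1d, Taf11 and Taf13, the Mediator genes Med4, Med13l, Med15, Med20 and Med21, the Integrator genes Ints6, Ints7, Ints11 and Ints12, Gtf2a2 and Polr2b. Gtf2a2 is a clear case, as its coding transcripts summed to 2.62 and 1.04 of a gene TPM of 15.16 and 14.87. The transcript with the highest mean TPM was protein-coding for 65 of the 78, a retained-intron model for 8 and a processed transcript for 5.

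A retained-intron transcript is annotated for 54 of the 78 (69.2%), against 65.1% of the expressed protein-coding genes. Over these 54 the median share of TPM on such models was 28.1% and 27.5%, and over the 5609 expressed protein-coding genes with one it was 27.9% and 27.3%. By expected counts the medians were 14.8% and 16.5%, against 15.2% and 15.1%. The members as a list thus carried a share of retained-intron models near that of other genes in both units. In the other transcript table their median share of TPM was higher than that of other genes, 35.1% and 39.1% against 32.4% and 33.4%, which was not tested.

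At least 50% of the TPM was on these models in both libraries for 6 of 54 members (11.1%, against 13.9%), namely Med20, Gtf2a2, Polr2b, Med15, Taf11 and Med4. By counts it was 7 of 54 (13.0%, against 11.4%), namely Taf1d, Gtf2b, Med20, Gtf2a2, Med4, Med21 and Med10. Only Med20, Gtf2a2 and Med4 met both (5.56%, against 7.67%). None of these shares was far from the background, so they describe single genes rather than the list.

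The shares of most of these genes were alike in both libraries. Med20, a head subunit, had 76.2% and 77.0% of its TPM and 84.9% and 88.7% of its counts on retained-intron models. Its model Med20-203, which contains all 3822 bases of intron 3, had 622 and 483 counts, against 132 and 69.2 on the coding Med20-201. Within that intron lies the pseudogene Kpna2-ps, on the opposite strand, with 0 and 7.21 counts. Gtf2b-202, which runs 3134 bases into the first intron, had 1108 and 754 counts and the coding Gtf2b-201 had 650 and 424, while by TPM the coding form led with 21.35 and 14.73 against 15.18 and 10.88. In Med15, the model Med15-209 had 892 and 659 counts and the coding Med15-201 had 1158 and 654. Med10 varied more, with 77.1% and 58.7% of counts on such models, and so did Med21, with 75.4% and 59.8%. By TPM the shares were 42.6% and 19.9% for Med10 and 55.1% and 36.5% for Med21. The gene counts of Med10 carry a posterior SD above 5%. On the opposite strand Gm26819 spans introns 1 and 3 of Med10-201, with 243 and 233 counts against 387 and 257 on Med10. As the strand setting is not given, the retained-intron shares of Med10 are uncertain. Taf6l, with 65.8% and 44.4% of its TPM on these models, and Ints11, with 41.6% and 55.6%, passed 50% in 1 library only, while Ints7 had 42.4% and 43.9% and Polr2e 31.3% and 40.9%.

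**Figure D3:**
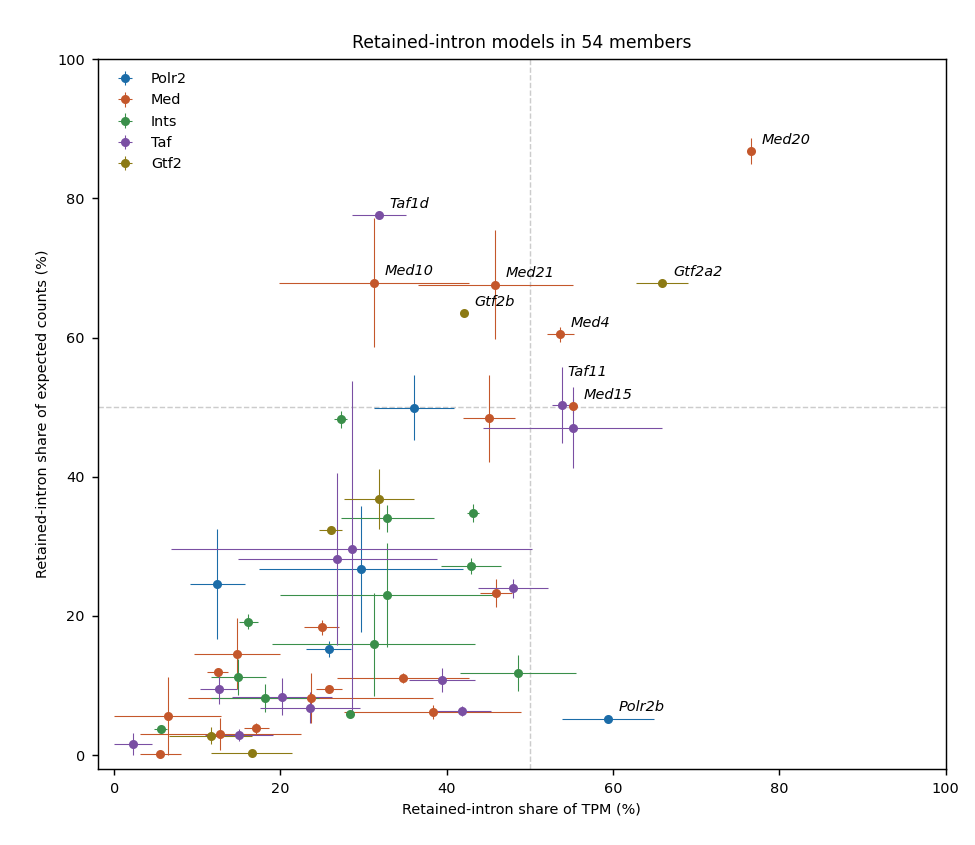
Share of each gene's TPM (horizontal) and of its expected counts (vertical) on retained-intron models for 54 members, with points at the mean of both libraries and lines to each library. Med20, Gtf2a2 and Med4 lie past 50% in both units and both libraries, and Polr2b lies past 50% by TPM with about 5% of its counts.

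Counts per gene were compared between the libraries. After normalisation by TMM, which scales the libraries to each other, and where the mean expected count was 50 or more, 0 of 73 members differed by more than 2-fold, against 1.18% of all 10088 genes compared. In single directions 0.506% of these genes were past 2-fold higher in replicate 2 and 0.674% in replicate 1, and none of the members. A count of 0 of 73 is near this background. The median log2 ratio of replicate 2 to replicate 1 was 0.00 for the members, and the median size of the ratio 0.16, against 0.18 for all genes. Of the 73, 37 (50.7%) were higher in replicate 2, against 50.1% of all genes. With 1 library on each side these ratios carry no test.

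The ratios ran from −0.55 for Med26, −0.52 for Taf15 and −0.44 for Med11 to 0.69 for Taf9, 0.71 for Med22 and 0.76 for Taf12. The ratio of Taf9 is uncertain, as it rests on 90.2 and 103 counts beside the overlapping Ak6. Med26, which helps recruit elongation factors, had 207 and 100 counts. Its ratio is uncertain too, as Gm17435 overlaps it on the opposite strand with 438 and 291 counts. Taf12, a histone-fold TAF, had 53 and 64 counts. TPM and counts went apart for Taf12: its TPM was 3.76 and 1.18, as 4 counts on Taf12-203, a processed transcript of 241 bases, gave a TPM of 3.10 in replicate 1 and none were seen in replicate 2. TPM was lower in replicate 2 for most genes, with a median shift of −0.34 for the members and −0.42 for protein-coding genes on the log2 scale, and the lower TPM of most members there was shared with other genes.

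**Figure D4:**
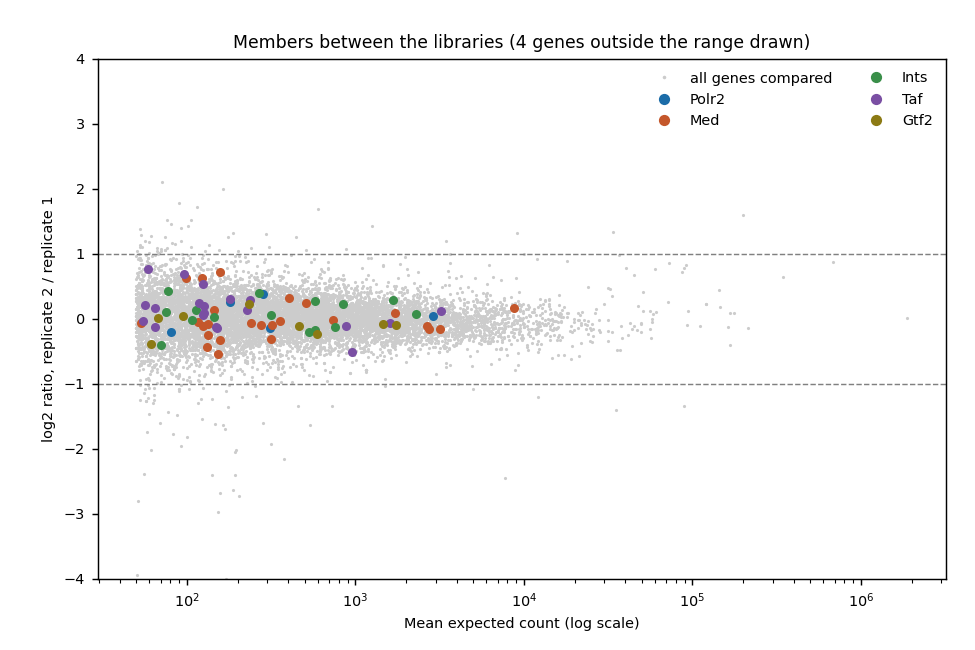
Log2 ratio of replicate 2 to replicate 1 after TMM against mean expected count (log axis) for 10088 genes in grey and 73 members in colour, with dashed lines at 2-fold. All members lie between −0.55 and 0.76.

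Genes that work with the members were read from lists of their own. All 3 genes of the Mediator kinase, all 5 other TFIIH genes and 2 of 3 genes of the TATA-binding protein family were expressed. Tbp itself had 2.14 and 3.07, its relative Tbpl1 3.55 and 2.44, and the germ-cell gene Tbpl2 0 counts. Cdk7, the kinase of TFIIH, was the highest of that list by mean, with 7.31 and 4.23, and Mnat1, which assembles it, the lowest with 2.10 and 1.32. Of the 6 Integrator partners 5 were expressed and Brat1, with 1.25 and 0.88, was not, while Nabp1, a single-strand DNA-binding protein, had 31.15 and 30.58.

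Of 12 genes that assemble the polymerase or act on its tail 8 were expressed. Ssu72, a phosphatase of the tail, led with 21.10 and 16.64, and 70.0% and 70.9% of that was on retained-intron models, while the assembly factor Rpap3 was lowest by mean TPM with 0.56 and 0.69. Of 19 subunits of RNA polymerases I and III 14 were, with Polr3c highest at 10.26 and 8.08, and over all 19 Polr3g was lowest by mean TPM with 0.48 and 0.43. No subunit of polymerases I and III reached the TPM of Polr2a in either library. The median of the 19 was 3.42 and 2.48, near the 2.87 and 2.64 of all 13 Polr2 genes. Those 13 include the 5 shared subunits, and the 8 genes of polymerase II alone had a higher median of 7.07 and 5.09.

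The members are spread over 20 chromosomes, with the most, 10, on chromosome 11. Their spans have a median of 18746 bases, and across the 94 genes Spearman's rho of span with CPM was 0.39 and 0.40, and with TPM 0.20 and 0.18. Genes are not independent replicates, and the expressed protein-coding genes gave 0.33 and 0.33 with CPM. Of the 94, 56 overlap another annotated gene, 45 of them on the opposite strand. For 16 an overlapping gene had more counts over both libraries, Taf10 with Ilk and Polr2i with Tbcb among them. The values of these 16 are uncertain. Within Gtf2a1 lies the snoRNA gene Gm25776, whose counts were 284 in replicate 1 and 31.0 in replicate 2, while Gtf2a1 had 2085 and 1387.

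Promoter windows of 250 bases before to 50 after the start were matched by gene for 79 of the 94 members, with 95 windows in the RefSeq table for GRCm38.p6. Both strands were searched for exact letters, and a match is a description of those letters and not a site. The GC box GGGCGG was in 65.3% of the members' windows, against 35.7% of all windows and 63.9% of those of expressed protein-coding genes. The letters CCGGAAG, a form that ETS factors bind, were in 29.5%, against 8.86% and 19.6%. The TATA box TATAAA was in 12.6%, against 13.6% and 6.94%, and CCAAT in 40.0%, against 37.4% and 36.5%. Longer motifs, given here by name alone, were rare: NRF1 in 1 window (Ints2), YY1 in 2 (Taf4 and Taf5) and NF-kB in 1 (Taf6l), against 0.971%, 0.633% and 1.20% of all windows and 2.25%, 1.73% and 1.57% of those of expressed protein-coding genes. The median ratio of observed to expected CpG was 0.84 in the members' windows and 0.77 in those of the expressed protein-coding genes.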

How the data were processed

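There were 3 tables per library on mm10 with GENCODE M21, per the file headers: genes, their transcripts, and transcripts as estimated a further time. How reads were aligned, quantified and assigned to strands is not given in the sources used here. As deposited by the authors, the expected counts of the first pair are estimates that need not be whole and are not normalised. The estimated counts of the other transcript table were summed per gene here. The TPM values were scaled by the authors by effective length. The deposited score is a posterior SD of a count. Rows that name no mouse gene stayed out of library sizes.

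The members and lists were chosen with earlier results of these data known. Levels are log2(TPM + 1), as mean ± SD over the libraries. For ratios, counts were rounded, genes of a mean count of 50 or more kept, TMM factors taken from edgeR 4.0.16 (R 4.3.3) and 0.5 added. DESeq2 1.42.0 size factors were an alternative. Other steps used numpy 2.4.6, pandas 2.3.3, scipy 1.17.1 and matplotlib 3.10.9. The ratio step was tested on simulated data. With 1 group no test between groups exists, so no p-value appears. As no molecular identifiers are recorded, floors (3 counts) and exact Poisson intervals (95%) cover counting error only.

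The text names Polr2a, the 4 highest and 3 lowest of each family, the genes of related pairs, those under 3 counts, the 3 largest and 3 smallest ratios, and the 2 highest retained-intron shares per family. Of the partner lists it names the highest and lowest. All other genes named, and the retained-intron windows, were chosen after their values were seen.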

Additional observations from a re-analysis of the deposited data

How the results depend on the processing

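With 1 condition, 2 libraries and 1 donor label, the spread may be technical. Short transcript models turn few counts into high TPM, and low members rest on few counts. The median log2 level of all members was 3.04 in CPM, 1.74 in the other transcript table, 3.87 with TPM rescaled over protein-coding genes, 1.62 with a pseudocount of 0.1 and 2.35 over members at a TPM of 1 or more. In that order the first 4 settings gave 1.62, 1.83, 3.77 and 1.51 for Polr2, 3.25, 2.00, 4.43 and 2.20 for Med, 4.18, 1.83, 4.05 and 1.81 for Ints, 2.96, 1.49, 3.51 and 1.24 for Taf, and 2.23, 2.36, 3.55 and 1.29 for Gtf2. Over members at a TPM of 1 or more the medians were 2.37 for Ints, 2.06 for Taf, 3.29 for Gtf2, 2.59 for Med and 1.97 for Polr2, so that Gtf2 led. Scale units differ by construction, and the cause of the other shifts was not tested.

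A TPM of 5 in both libraries was reached by 31 members (33.0%, against 22.1% of protein-coding genes). A TPM of 1 was reached by 66 in the other transcript table (70.2%, against 39.2%), 90 after rescaling (95.7%, against 49.0%), 80 in replicate 2 alone (85.1%, against 39.8%) and 83 in replicate 1 alone (88.3%, against 41.7%). Without a filter on counts 4 members, Polr2i, Polr2d, Med30 and Med18, differed by more than 2-fold between libraries, as did 26.1% of all genes. The median retained-intron share was 37.1% in the other transcript table, 15.7% by counts and 31.7% at a TPM of 5 or more. Expressed protein-coding genes with such a model had 32.9% and 15.2% in the first 2 settings. For the share outside protein-coding types these were 45.5%, 12.7% and 43.3%. DESeq2 size factors and 1 added to each count left 0 members beyond 2-fold. The direction between Ints6 and Ints6l turned in the other transcript table. No paired analysis was possible because there was only 1 group.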
